A study of Mus musculus with 24 samples.

Results

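The cytosolic ribosomal protein genes encode the proteins of the small (40S) and large (60S) subunits of the ribosome outside mitochondria. Members were taken as the protein-coding mouse genes whose GENCODE symbol is Rpl or Rps with a number, optionally ending in a, x or l, together with Rplp0, Rplp1, Rplp2 and Rpsa. Of 81 such genes in the annotation, 79 were analysed here, out of 18647 genes in all (Rpl10l and Rpl39l were not analysed here). They comprised 32 genes of the 40S subunit, 44 of the 60S subunit and the 3 genes of its P-stalk (Rplp0, Rplp1, Rplp2). All 79 passed the filter on low counts, as did 18153 genes of the whole table. The rule used names alone and no measured value.

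A ribosome needs one copy of almost every one of these proteins, and the mRNAs are among the most abundant of a cell. Most of them begin with a C followed by a run of C and T, the 5′ terminal oligopyrimidine (TOP) motif, through which the mTOR pathway and the protein LARP1 control their translation. Several, among them Rplp0, Rpl13a, Rps18, Rpl19 and Rpl32, are widely used as reference genes in quantitative PCR. Many of the genes also have processed pseudogenes, which are near-identical copies elsewhere in the genome.

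mRNA of the hippocampal CA1 subfield of adult C57Bl/6N mice was sequenced after status epilepticus (SE) induced with 335 mg/kg pilocarpine, a muscarinic agonist, and stopped with diazepam. SE mice were sampled at 5 times, namely 6, 12, 24, 36 or 72 h later, and non-SE control mice (Ctr), which received saline in place of pilocarpine, at 12, 36 and 72 h. Both kinds of animal had received scopolamine methyl nitrate beforehand. The authors state that controls were treated in the same way apart from the saline, which would include the diazepam. With 3 libraries in every one of the 8 groups, 24 libraries were analysed.

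Library totals ranged from 2663936 to 30133731 counts, and the 3 Ctr 72 h libraries had 11680209, 5793721 and 2663936. Each library carries a number, and these numbers are grouped here in 3 ranges. Numbers 92 to 104 held SE libraries only, numbers 162 to 169 held all 3 Ctr 72 h libraries with 1 Ctr 12 h and 1 SE 12 h library, and numbers 109 to 122 held the rest. What these ranges stand for is not given in the sources used here. In 6 libraries, namely SE 6 h replicate 3, SE 12 h replicate 1, SE 36 h replicate 3, SE 72 h replicates 1 and 2 and Ctr 72 h replicate 2, a list of sensory ganglion genes summed to between 415 and 1930 CPM (counts scaled to a common library total), against at most 93.4 CPM in the others. Counts of calls are therefore also given without the Ctr 72 h libraries or without those 6. Without those 6, SE 72 h keeps only replicate 3, and SE 6 h, SE 12 h, SE 36 h and Ctr 72 h each lose 1 library. Smaller groups alone can lose calls.

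The beginnings of 8 members are shown because the results below turn on these genes and because the TOP motif is the sequence feature the group is best known for. Each line runs 5′ to 3′ over 30 bases, 10 before and 20 from the RefSeq transcription start, on build GRCm38.p6, and capitals mark a run of at least 6 C or T bases that opens with C. In Rps27l, which has 2 RefSeq starts, the run lies wholly before the start shown, so it is not part of that transcript.
Rplp0, chr5:115559457-115559486, plus strand: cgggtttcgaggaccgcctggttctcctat
Rps6, chr4:86857348-86857377, minus strand: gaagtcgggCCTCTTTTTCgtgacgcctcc
Rpl27, chr11:101442235-101442264, plus strand: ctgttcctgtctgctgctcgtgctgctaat
Rpsa, chr9:120127756-120127785, plus strand: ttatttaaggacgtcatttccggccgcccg
Rps18, chr17:33955646-33955675, minus strand: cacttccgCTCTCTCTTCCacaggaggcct
Rps4x, chrX:102189372-102189401, minus strand: gctgggcggagcaacccaggctccagcgcg
Rps27, chr3:90213629-90213658, minus strand: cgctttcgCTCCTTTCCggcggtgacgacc
Rps27l, chr9:66946076-66946105, plus strand: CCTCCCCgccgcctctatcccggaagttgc

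Of the 58 members with a RefSeq start, 29 (50%) held such a run inside the 20 bases around the start, against 2448 of 12764 genes tested (19.2%). The letters CGGAAG, searched on both strands of the 300 bases around the start, occurred in 40 members (69.0%) and in 30.2% of genes tested, and its reverse complement can overlap a C and T run. TATAAA occurred in 6 members (10.3%) and in 9.71% of genes tested. No run was found in the windows of Rplp0, Rpl27, Rpsa and Rps4x, which says only that these letters are not there at the annotated start.

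The members shared short coding sequences, with a median of 468 bases and a range of 138 to 1260. In the 9 control libraries their mean levels spanned 0.431 to 420 CPM, with Rpl4, Rplp1 and Rps3 the most abundant over all libraries. Per kb of coding sequence the median was 182 CPM and the highest level was that of Rpl41 (1170 CPM per kb), which encodes the smallest protein of the 60S subunit, followed by Rplp1 (971 CPM per kb). Counts could come only from reads with one place in the genome. In 46 of the 79 members at least 90% of the 32-base words of the coding sequence occurred elsewhere in the genome, and in 29 all of them did, among them Rps6 and Rpl27. These words are shorter than the paired reads, and sequence outside the coding part was not searched. Whether a low level of such a gene reflects reads lost to its copies was therefore not tested. In 16 members more than 20% of the coding bases lay in exons of another gene of GENCODE M39, including 100% in Rpl28 (Ube2s), 97.5% in Rpl13a (Gm45713), 77.6% in Rps18 (Gm64720) and 62.8% in Rplp0 (Gm73188), and the counting used no strand. The authors counted on the older release M26, and whether it held each of these overlapping genes was not tested, so the values of the 16 members are uncertain.

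The first question was how large a part of the mRNA the group made up at each time. The 79 genes held 0.697, 0.804 and 0.667% of all counts in Ctr 12 h and 0.632, 0.667 and 0.711% in Ctr 36 h. In Ctr 72 h they held 0.894, 0.891 and 1.01%, above every library of the other control groups. After SE the share was 0.78, 0.866 and 0.823% at 6 h and 0.847, 0.84 and 1.08% at 12 h. It was highest at 24 h, with 1.24, 1.05 and 1.12%, and stood at 0.988, 1.09 and 1.09% at 36 h and 1.02, 0.978 and 1.14% at 72 h. The SE and control libraries thus did not overlap at 12 h or at 36 h, whereas SE 72 h (1.05% ± 0.0827, SD, n = 3) overlapped Ctr 72 h (0.931% ± 0.066, SD, n = 3). In bulk tissue a change in the number of cells of a type and a change in mRNA per cell cannot be told apart.

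**Figure D1:**
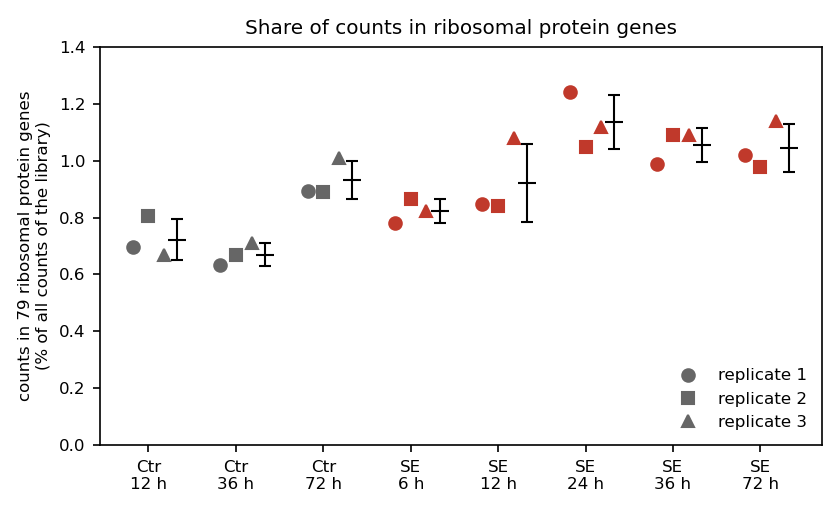
Percent of all counts of a library that fell in the 79 ribosomal protein genes (y axis) in the 3 replicates of each control (grey) and SE (red) group, with the mean and SD in black. SE libraries at 24 h lie between 1.05 and 1.24%, and the Ctr 72 h libraries (0.891 to 1.01%) lie above the other 6 controls (0.632 to 0.804%).

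Every member was then tested with edgeR's quasi-likelihood test in 1 fit over the 24 libraries, with Benjamini-Hochberg adjustment over all 18153 genes. A gene is called when its adjusted p is at most 0.05, and a DEG must also have changed by 0.66 or more, up or down, on the log2 scale (log2FC). SE 6 h and SE 24 h, which have no control of their own time, were set against the mean of the 3 control groups, so these comparisons share controls with the others.

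Some ribosomal protein mRNAs were called higher, and none lower, at each time up to 36 h. The share called higher lay below that of all genes at 6 h and above it at 12, 24 and 36 h. The counts of calls come from tests against 9 controls at 6 and 24 h and against 3 at 12 and 36 h. At 6 h 10 of the 79 members were higher and 0 lower (12.7%, where 23.2% of all genes tested were called higher and 16.7% lower), with a median log2FC of 0.13 over the members and 0.06 over all genes. At 12 h 31 were higher and 0 lower (39.2%, all genes: 20.4% higher, 18.1% lower), with a median log2FC of 0.33 (1.26-fold). At 24 h 70 were higher and 0 lower (88.6%, all genes: 23.9% higher, 17.5% lower), with a median of 0.59 (1.51-fold). At 36 h 51 were higher and 0 lower (64.6%, all genes: 17.2% higher, 14.5% lower), with a median of 0.56 (1.47-fold). DEGs, all of them higher, numbered 0 at 6 h (all genes: 15.8%), 9 at 12 h (13.9%), 32 at 24 h (15%) and 19 at 36 h (12.7%). As shares of the 79 members, those at 6 and 12 h lay below that of all genes. Members with all 3 SE libraries above every control library of the comparison numbered 3 at 6 h (all genes: 12.9%), 25 at 12 h (24.5%), 30 at 24 h (13.6%) and 59 at 36 h (25.8%). Over all genes tested the median log2FC was 0.01, 0.04 and 0.00 at 12, 24 and 36 h. The 31 members called at 12 h were also called at 24 h, and 50 of the 51 called at 36 h were (the other, chosen after its values were seen, was Rpl35a).

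Genes of both subunits were among those called. At 24 h 27 of the 32 genes of the 40S subunit were called higher (median log2FC 0.62), 40 of the 44 of the 60S subunit (median 0.59) and 3 of the 3 of the P-stalk. At 36 h these counts were 21 of 32 (median 0.59), 28 of 44 (median 0.55) and 2 of 3. The difference between subunits was not tested.

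**Figure D2:**
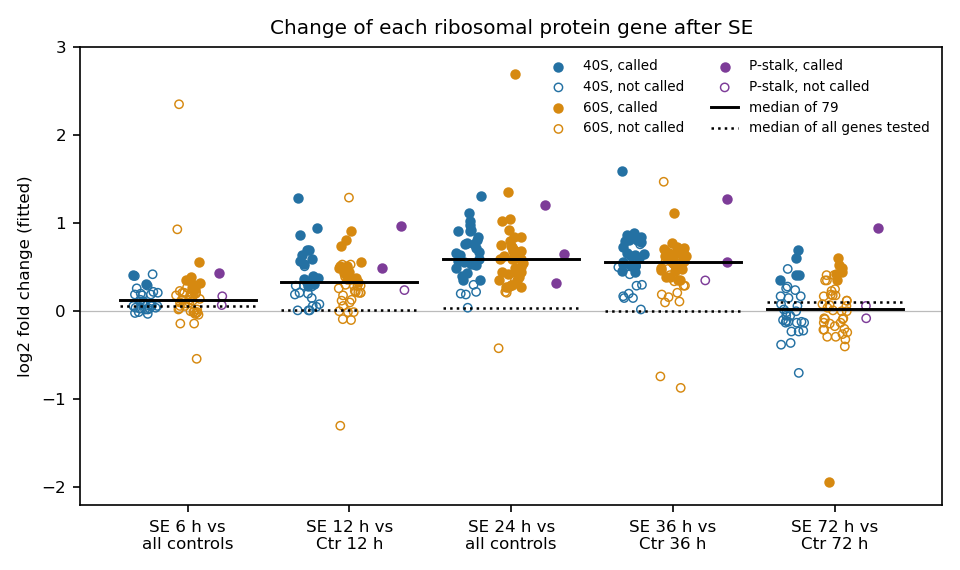
Fitted log2 fold change (y axis) of each ribosomal protein gene in the 5 comparisons of SE with control, coloured by subunit, filled where called, with the median of the 79 genes (line) and of all genes tested (dotted). The medians are 0.13, 0.33, 0.59, 0.56 and 0.02 from 6 to 72 h, and Rpl3l at 72 h lies beyond the axis.

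Some of these counts rested on single libraries or on the controls used. At 6 h the count fell to 1 when SE 6 h replicate 2 was left out, to 3 for replicate 3 and to 6 for each of Ctr 12 h replicate 3, Ctr 36 h replicate 1 and Ctr 36 h replicate 2, and it was 31 when the Ctr 72 h libraries were. At 12 h it was 11 when SE 12 h replicate 3 was dropped, 13 and 17 for replicates 1 and 3 of Ctr 12 h, and 47 without the 6 libraries with ganglion genes. At 24 h the count stayed between 56 and 71 when any 1 library was left out, and at 36 h between 34 (without Ctr 36 h replicate 1) and 58. The SE 24 h libraries all had numbers from 92 to 104, where no control lies, and when the number range entered the fit as a factor the count at 24 h was 22 of 79 (all genes: 11.2% higher, median log2FC of the members 0.31) and at 12 h 11. At 36 h it was 44 in that fit (all genes: 13.8% higher). Within numbers 109 to 122, the 2 SE 36 h libraries had shares of 0.988 to 1.09% and the 3 Ctr 36 h libraries 0.632 to 0.711%, and 60 of the 79 members were higher in both SE libraries than in all 3 controls, as were 30.7% of all genes tested. In the same range the 2 SE 6 h libraries (0.78 to 0.866%) overlapped the 5 controls (0.632 to 0.804%). At 12 h the only range with both kinds, 162 to 169, held 1 library of each, with shares of 0.847 and 0.667%.

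**Figure D3:**
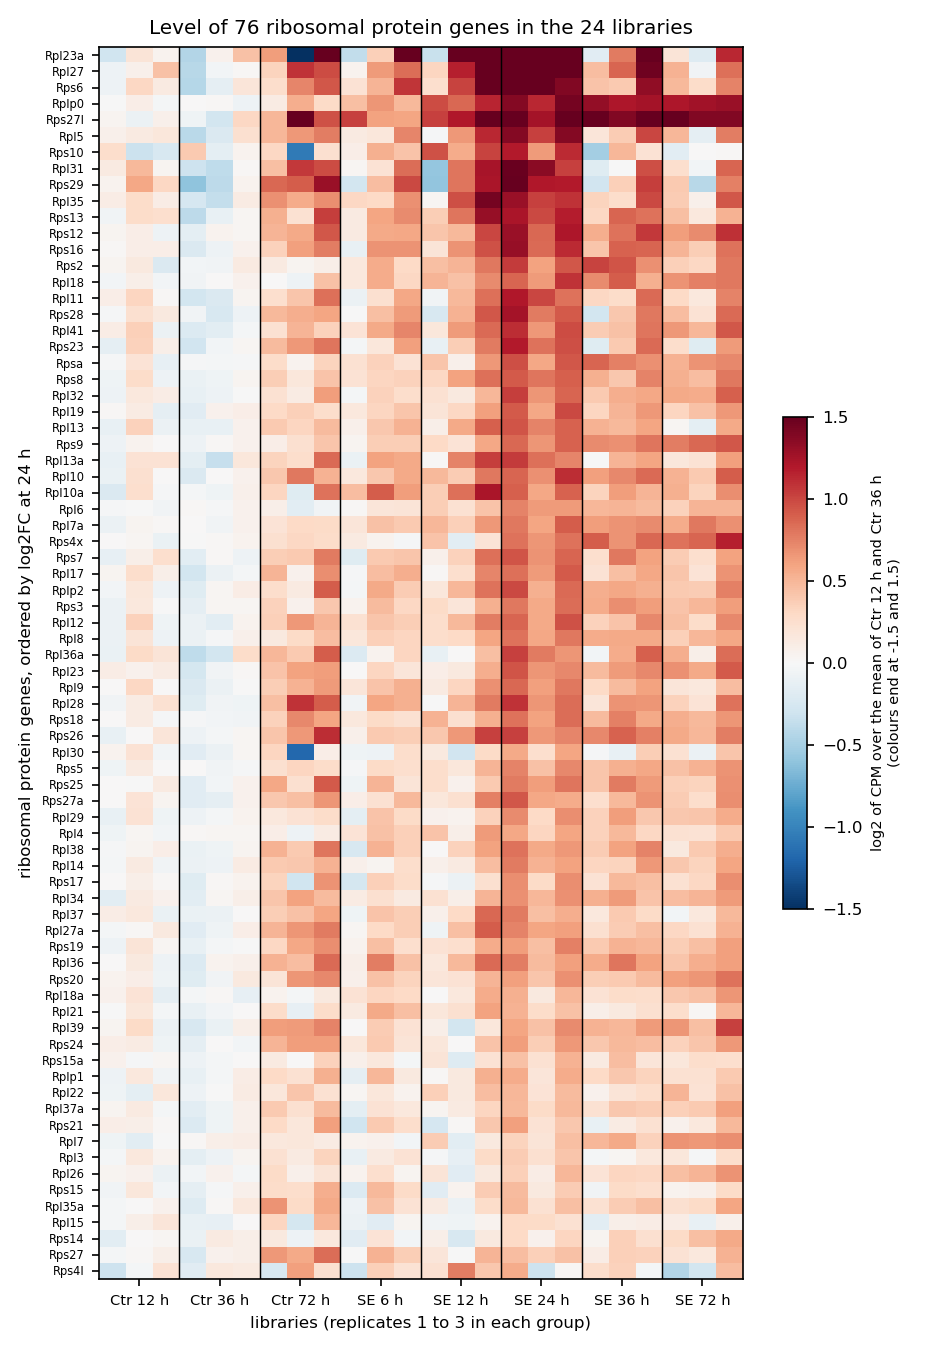
Level of 76 ribosomal protein genes (rows, ordered by log2FC at 24 h) in the 24 libraries (columns), as log2 of CPM over the geometric mean of the 6 Ctr 12 h and Ctr 36 h libraries. Not drawn are Rpl24 and Rpl3l, which have a library at 0, and 1 further member. The median over the genes drawn lies between 0.59 and 0.82 in the SE 24 h libraries and between 0.34 and 0.59 in Ctr 72 h.

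The P-stalk gene Rplp0, whose product anchors the stalk that recruits elongation factors to the ribosome, changed at every time. It measured 132, 142 and 130 CPM in Ctr 12 h, 133, 135 and 126 in Ctr 36 h and 145, 194 and 162 in Ctr 72 h. After SE it measured 182, 211 and 186 CPM at 6 h, then 261, 241 and 293 at 12 h and 346, 291 and 359 at 24 h. The later libraries gave 332, 307 and 315 CPM (36 h) and 308, 319 and 326 (72 h). At 12, 24, 36 and 72 h every SE library lay above all 9 controls. The log2FC, with the standard error of the estimate, was 0.43 ± 0.08 at 6 h (adjusted p = 0.000263), 0.97 ± 0.10 at 12 h (adjusted p = 6.44e-07) and 1.21 ± 0.08 at 24 h (adjusted p = 1.88e-10). It was 1.27 ± 0.10 at 36 h (adjusted p = 1.64e-08) and 0.95 ± 0.10 at 72 h (adjusted p = 7.6e-07). Rplp0, Rpl7a, Rpl18 and Rps2 were the 4 members called higher at all 5 times, and Rplp0 kept its calls in every alternative tried in which it was tested. Rplp1 and Rplp2, its partners in the stalk, changed less, with 0.32 and 0.65 at 24 h. In GENCODE M39 62.8% of the coding bases of Rplp0 lie inside Gm73188, a lncRNA on the opposite strand, and whether the release used for counting held this lncRNA was not tested.

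Rps27l, a paralog of Rps27 that is also known as a p53 target, had the largest increase among called members at 12 and 36 h. It measured 6.72, 6.15 and 6.92 CPM in Ctr 12 h against 13.3, 15.1 and 19.8 in SE 12 h (log2FC 1.29 ± 0.20, adjusted p = 4.95e-05). In Ctr 36 h it measured 6.26, 5.43 and 8.13 CPM against 21.1, 17.1 and 21.1 in SE 36 h (1.59 ± 0.20, adjusted p = 4.91e-06). Neither pair of groups overlapped. In Ctr 72 h it measured 9.28, 22.2 and 12.7 CPM, and the highest of these, the library with the most ganglion RNA, stood above all 3 SE 72 h libraries (22, 17.2 and 17.2). The log2FC at 72 h was 0.48 ± 0.20 (adjusted p = 0.0852), and the gene was called when this library was left out (0.82). Its partner Rps27 was called at none of the 5 times (log2FC 0.21 at 12 h and 0.30 at 36 h), and the difference between the paralogs was not tested.

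Rps6, the 40S protein that the mTOR pathway phosphorylates through S6 kinase, rose at 12, 24 and 36 h with log2FC of 0.87, 1.31 and 0.89. It measured 77.9, 70 and 63.4 CPM in SE 24 h, above all 9 controls (18 to 46.1, median 27.6). In SE 36 h only replicate 3 (61 CPM) lay far above the others (32.6 and 31.9), and the call at 36 h was lost without it, without Ctr 36 h replicate 1 or 2 and without the libraries with ganglion genes. The call at 12 h was lost when SE 12 h replicate 3 or either of Ctr 12 h replicates 1 and 3 was dropped. Rpl27, of the 60S subunit, followed the same course, with 35.1, 33.4 and 30.3 CPM in SE 24 h against 7.98 to 22.7 in the controls (log2FC 1.35 ± 0.23, adjusted p = 8.51e-05). At 12 h (0.91) it was called unless SE 12 h replicate 2 or 3 or Ctr 12 h replicate 1 was left out, and at 36 h (1.12) unless SE 36 h replicate 3 was. In both genes all coding words recur elsewhere in the genome.

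Several other members are given in full for their size or their time of change. Rps4x, an X-linked gene with a copy in Rps4l, measured 163 to 216 CPM in the 9 controls (median 178) and 192, 181 and 172 in SE 6 h. It reached 306, 276 and 307 CPM in SE 24 h, 326, 278 and 316 in SE 36 h and 307, 318 and 390 in SE 72 h, above all 9 controls at each of these times. Its log2FC was 0.67 ± 0.09 at 24 h (adjusted p = 1.17e-05), 0.80 ± 0.12 at 36 h (4.42e-05) and 0.69 ± 0.12 at 72 h (0.000289). Rpsa, which is also the laminin receptor, rose at 24 h by 0.76 (adjusted p = 4.81e-06) and at 36 h by 0.79 (adjusted p = 8.91e-05), with 338, 312 and 297 CPM in SE 36 h against 183, 181 and 183 in Ctr 36 h. Rps2 rose by 0.59, 0.84 and 0.87 at 12, 24 and 36 h, and the SE 36 h libraries (325, 308 and 259 CPM) lay above all 9 controls (138 to 178). Rpl10a, of the 60S subunit, had the largest increase among called members at 6 h (0.56 ± 0.14, adjusted p = 0.00367), with 55.1, 75.2 and 61.5 CPM against 34.5 to 70.1 in the controls. That call was lost without SE 6 h replicate 2.

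**Figure D4:**
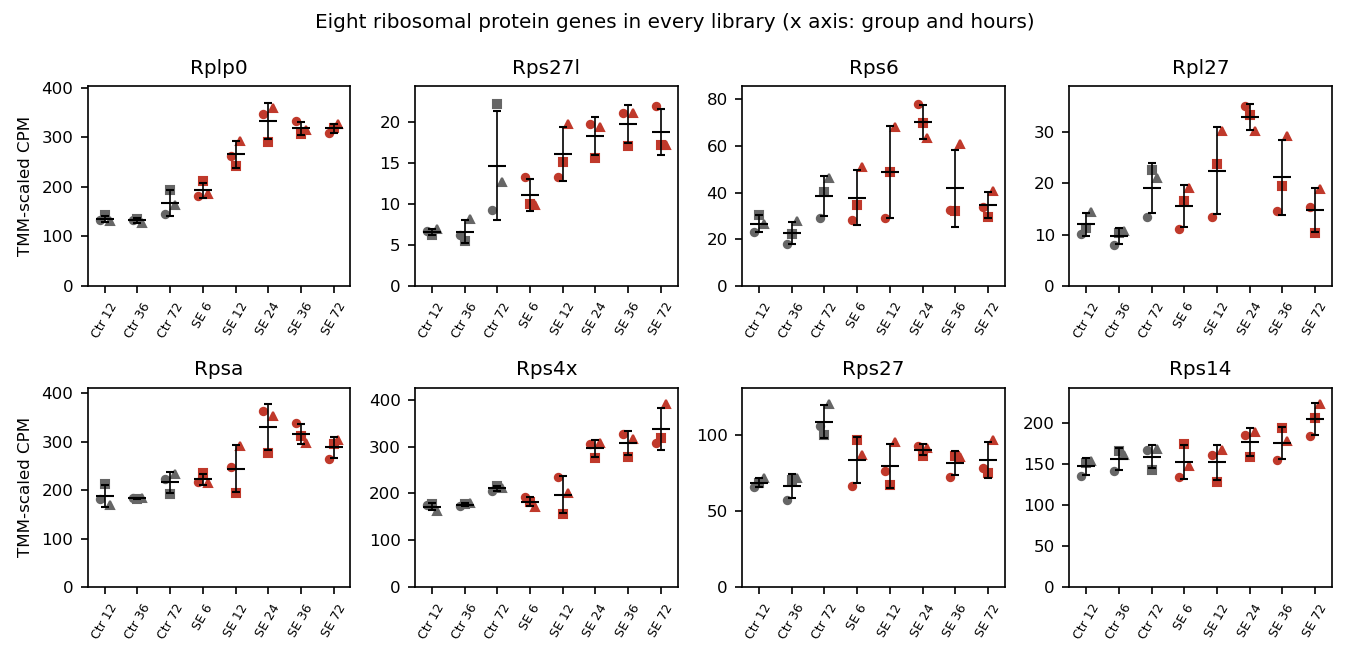
TMM-scaled CPM (y axis) of 8 ribosomal protein genes in the 3 replicates of each group, with mean and SD in black, controls in grey and SE in red. Rplp0 rises from 126 to 194 CPM in the controls to 291 to 359 in SE 24 h, whereas the SE 24 h libraries of Rps14 (158 to 189) overlap the controls (135 to 168).

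A few members were called at no time or at 1 time. Rps15, Rps21, Rps27, Rpl15 and Rps4l were called at none of the 5 times, with log2FC at 24 h of 0.22, 0.30, 0.19, 0.21 and 0.04. Rps14, a 40S protein, measured 135 to 168 CPM in the controls and 185, 158 and 189 in SE 24 h (0.20 ± 0.10, adjusted p = 0.115), and at 72 h its log2FC was 0.36 ± 0.13 (adjusted p = 0.0391), a call lost when Ctr 72 h replicate 2 or 3 or SE 72 h replicate 2 or 3 was left out. Rpl3, a large protein of the 60S subunit, measured 211 to 294 CPM in the controls and 304, 276 and 312 in SE 24 h (0.27 ± 0.09, adjusted p = 0.0242). Its log2FC was -0.00 at 12 h and 0.11 at 36 h. A p above the threshold does not show that these genes were unchanged.

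The genes often used as PCR references also rose. At 24 h Rplp0, Rpl13a, Rps18, Rpl19 and Rpl32 had log2FC of 1.21, 0.71, 0.57, 0.74 and 0.75, all called higher. At 36 h Rps18, Rpl19 and Rpl32 were called with 0.64, 0.49 and 0.57, and Rpl13a, at 0.49 ± 0.24, was not (adjusted p = 0.139). Rps18 measured 117, 142 and 125 CPM in SE 36 h against 83, 82 and 81.2 in Ctr 36 h, but 107, 139 and 127 in Ctr 72 h. At 72 h the log2FC of these genes other than Rplp0 ranged from -0.13 (Rpl13a) to 0.35 (Rpl32), none of them called.

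Members with few counts carry little weight. Rpl23a, at 0.171 to 5.62 CPM in the controls, had the largest increase at 24 h (13.4, 14.1 and 7.64 CPM, log2FC 2.69 ± 0.50, adjusted p = 0.000227), but 100% of its coding words recur elsewhere and 55.3% of its coding bases lie in another gene. Rpl24, the only member called lower at any time (log2FC -1.94 at 72 h, adjusted p = 0.0442), had 8, 44 and 0 counts in Ctr 72 h and 6, 5 and 4 in SE 72 h. Its call rested on Ctr 72 h replicate 2: without that library the call was lost, as it was without Ctr 72 h replicate 1 or without any of the 3 SE 72 h libraries. Rpl3l, the muscle paralog of Rpl3, had 0 counts in each Ctr 72 h library and 12, 3 and 5 counts in SE 72 h. It was called at 72 h, but both groups lie near the floor of 3 counts in these shallow controls, and its fitted log2FC against these controls is no measure of size.

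At 72 h the outcome depended on the controls. Against Ctr 72 h 13 of the 79 members were higher (16.5%, where 18.7% of all genes were) and 1 was lower (all genes: 9.3%), 3 were DEGs that were higher (15.2%) and 18 had all SE libraries above all Ctr 72 h libraries (19.4%), with a median log2FC of 0.02 against 0.10 over all genes tested. The count was 9 without SE 72 h replicate 3. Beside Rplp0 and Rps4x, those called included Rpl18 (0.61), Rps9 (0.60) and Rpl7 (0.52). Against the mean of the 3 control groups 39 members were called (all genes: 22.9% higher), all higher, with a median of 0.32, and against the mean of Ctr 12 h and Ctr 36 h without the Ctr 72 h libraries 54 were (all genes: 22.3% higher), all higher, with a median of 0.46. The SE 72 h libraries themselves gave few differences from SE 36 h, with 0 of 79 members called by edgeR (all genes: 6.54% higher, 3.84% lower), 3 at an unadjusted p under 0.05, 0 by DESeq2 and 0 by limma-voom, and a median log2FC of -0.00. The count was 1 without SE 72 h replicate 3.

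The control groups differed from each other as well. Between Ctr 72 h and Ctr 36 h 21 members were called, all higher at 72 h (26.6%, where 1.12% of all genes were, and 2.13% lower), with a median log2FC of 0.49, and 75 of the 79 members had their highest control mean at 72 h, as did 39.2% of all genes tested. Rps29, with 1.31, had an adjusted p of 0.0766, and Rps27l (1.04), Rps26 (0.77), Rpl39 (0.75) and Rps27 (0.71) were among those called. Dropping replicates 1, 2 and 3 of Ctr 36 h in turn left 0, 2 and 7 calls, and dropping replicates 2 and 3 of Ctr 72 h left 0 and 11. The count was also 0 without the 6 libraries with ganglion genes, which keeps replicates 1 and 3 of Ctr 72 h, with a median of 0.50. Between Ctr 72 h and Ctr 12 h 6 were called (7.59%, where 0.512% of all genes were, and 0.854% lower), all higher, with a median of 0.36. Dropping replicates 1, 2 and 3 of Ctr 12 h left 0, 3 and 0 calls, and dropping replicates 1 and 2 of Ctr 72 h gave 18 and 0. Between Ctr 36 h and Ctr 12 h none was called by edgeR, DESeq2 or limma-voom, with 0 at an unadjusted p under 0.05, a median of -0.09 and 0.0% of all genes called in either direction. Label number and time move together in the Ctr 72 h libraries, and these cannot be told apart. The 5 blood cell markers summed to 49.4 to 114 CPM there, against 23.5 to 33.4 in Ctr 12 h and 25 to 35 in Ctr 36 h. None of the 5 was called between Ctr 72 h and either group. In Ctr 72 h replicate 2 leukocyte markers summed to 30.4 CPM (replicates 1 and 3: 6.25 and 6.75) and choroid plexus markers to 87.3 (10 and 9.37). The part of such cells in the members' result was not tested. With every library thinned to the smallest total, 15 of 77 members tested were called between Ctr 72 h and Ctr 36 h, with a median of 0.51. Ctr 12 h replicate 3, which has a number of the same range, held 0.667% of its counts in the members. It is a single library, and the part of the number range in the members' result was not tested. Among protein-coding genes other than members, those with a coding sequence under 600 bases had a median log2FC of 0.12 between Ctr 72 h and Ctr 36 h, those over 1500 bases -0.11, and the part of length in the members' result was not tested.

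Between SE times, the step from 12 to 24 h was the one with most calls. It held 14 members called higher and 0 lower (17.7%, where 5.26% of all genes were, and 3.85% lower), with a median log2FC of 0.32, and 76 of 79 were above 0. Dropping replicates 1 and 2 of SE 12 h left 4 and 1 calls, and dropping replicates 1 and 3 of SE 24 h left 1 and 5. From 6 to 12 h 1 member was called (all genes: 2.07% higher, 2.48% lower), chosen for naming after its values were seen, Rplp0, and 0 without SE 6 h replicate 3. From 24 to 36 h none was called by edgeR (all genes: 0.523% higher, 0.369% lower; median -0.19, 21 at an unadjusted p under 0.05, of which 1 was higher), DESeq2 or limma-voom, and 9 were called lower without the 6 libraries with ganglion genes.

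The difference of the SE effect between times was tested as an interaction. None of the 79 members differed between 36 and 12 h by edgeR (all genes: 2.18% higher, 1.61% lower; median difference 0.21, 9 at an unadjusted p under 0.05), 2 by DESeq2 and 1 by limma-voom. Between 72 and 36 h 8 members had a smaller effect at 72 h and 0 a larger one (all genes: 1.43% smaller, 3.92% larger), with a median of -0.50 over the members and 0.12 over all genes. These were Rps27l (-1.11), Rps13 (-1.06), Rps26 (-0.94), Rpl38 (-0.83), Rpl9 (-0.81), Rps25 (-0.78), Rps18 (-0.62) and Rps24 (-0.61). Dropping replicates 1, 2 and 3 of Ctr 36 h left 1, 1 and 5, dropping replicates 2 and 3 of SE 36 h left 1 and 2, dropping replicates 1 and 3 of Ctr 72 h gave 14 and 3, and dropping replicates 1 and 2 of SE 72 h left 3 and 1. Without the 6 libraries with ganglion genes, where only SE 72 h replicate 3 remains at 72 h after SE, the median was -0.25. In the fit over all libraries the members' median log2FC was -0.00 from SE 36 h to SE 72 h. From Ctr 36 h to Ctr 72 h it was 0.49. Between 72 and 12 h 6 members had a smaller effect at 72 h (all genes: 8.16%) and 2 a larger one (all genes: 14%), with a median of -0.26. Dropping Ctr 12 h replicate 1 left 2, dropping replicates 1 and 3 of SE 12 h gave 19 and 1, dropping Ctr 72 h replicate 3 left 3, and dropping replicates 1, 2 and 3 of SE 72 h gave 5, 3 and 13.

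Genes that work with the ribosome were followed in the same comparisons, beside which the shares of all genes called higher and lower were 23.2 and 16.7% at 6 h, 20.4 and 18.1% at 12 h and 23.9 and 17.5% at 24 h. At 36 h these shares were 17.2 and 14.5%, and at 72 h 18.7 and 9.3%. Of 7 ribosomal protein genes outside the name rule, 3, 3, 7, 4 and 2 were called higher from 6 to 72 h. Rack1, a scaffold on the 40S subunit, rose by 0.64 at 12 h, 0.94 at 24 h and 0.81 at 36 h. Of 21 other TOP mRNAs, among them those of elongation factors, 13 were called higher at 12 h and 14 at 24 h, with 0 lower. Vim, which is also known for reactive astrocytes, led these (2.95 and 4.08), and Eef2, the translocation factor, had 0.29 at 12 h and 0.34 at 36 h. Of 28 translation initiation factors 18 were higher and 2 lower at 12 h, and 20 and 2 at 24 h. Eif6 (1.11 and 1.21), which keeps free 60S subunits apart, was higher, and Eif1ax (-0.47 and -0.49) and Eif4a2 (-0.30 and -0.44) were lower.

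Ribosome biogenesis genes, which process ribosomal RNA in the nucleolus, were called early. Of 42 genes 21, 35, 28, 8 and 2 were called higher at the 5 times in turn, and 2, 0, 0, 1 and 8 lower, with median log2FC of 0.29, 0.54, 0.39, 0.14 and -0.10. Their median was highest at 12 h and that of the ribosomal protein genes at 24 h, and the difference in course was not tested. Ddx21, a nucleolar helicase, had 1.43 at 12 h and 0.88 at 36 h. Of 22 regulators of ribosomal protein synthesis 8 were higher and 3 lower at 12 h, with Eif4ebp1 (2.01), an mTOR target that holds back initiation, Rheb (1.87), the activator of mTOR, and Cirbp (-0.96) among them. At 24 h 6 of them were higher and 3 lower, with a median log2FC of 0.08 against 0.04 over all genes. Myc, a transcription factor of ribosomal protein genes, then stood at 2.01, and Mycn, of the same list, at -0.82. The 77 mitochondrial ribosomal protein genes, which serve a separate ribosome, had 6 higher and 26 lower at 6 h, 15 and 13 at 12 h and 24 and 3 at 24 h, with medians of -0.14, 0.06 and 0.21.

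**Figure D5:**
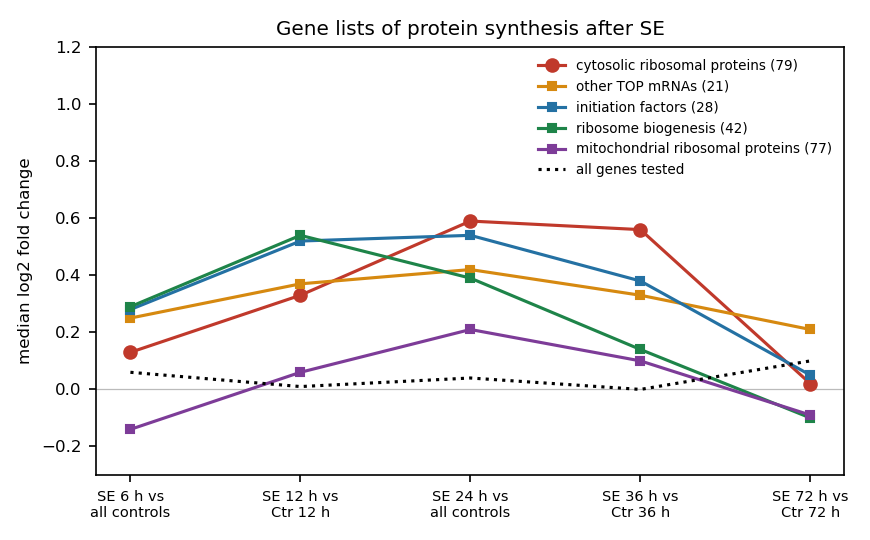
Median fitted log2 fold change (y axis) of 5 gene lists and of all genes tested in the 5 comparisons of SE with control. The ribosome biogenesis list is highest at 12 h (0.54), the cytosolic ribosomal protein genes at 24 h (0.59), and at 72 h all lists lie between -0.10 and 0.21.

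Markers of cell types moved in the same libraries. The 12 microglial markers summed to 412 to 511 CPM in the 9 controls, 690 to 937 in SE 24 h, 956 to 1090 in SE 36 h and 2050 to 2950 in SE 72 h, and 12 neuronal markers to 13000 to 19900 CPM in the controls and 9680 to 11900 from 24 h on. From 6 to 72 h 2, 4, 8, 9 and 12 of the microglial markers were called higher and 5, 3, 1, 1 and 0 lower. Of the 12 neuronal markers 1, 1, 1, 1 and 0 were called higher at these times and 1, 5, 3, 5 and 6 lower. The 10 astrocyte markers summed to 5010 to 6100 CPM in the controls and 5640 to 14600 in the SE libraries, and 3 of them were called higher and 6 lower at 24 h, and 4 each way at 36 h. The 10 vascular markers summed to 367 to 534 CPM in the controls and 525 to 729 in the SE libraries. The 6 CA1 pyramidal markers, which were all detected, summed to 827 to 1660 CPM in the controls and 377 to 1040 after SE. The highest of these control sums were those of Ctr 36 h (1560 to 1660). From 6 to 72 h 1, 1, 2, 4 and 2 of the CA1 markers were called lower, and 0 higher at any time. None of these markers was at 0 in all controls or in all SE libraries. From each SE time to the next, 1, 10, 0 and 11 of the 12 microglial markers were called higher and 0 lower. Their median log2FC over these steps was 0.14, 0.79, 0.39 and 1.35. That of the ribosomal protein genes was 0.11, 0.32, -0.19 and -0.00. The part of cell composition in the members' result was not tested.

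The size of the change varied among members. Over the 75 members with at least 10 counts in every library, Spearman's rho of the log2FC at 24 h was -0.34 with the mean level in controls, 0.16 with coding length, 0.25 with the share of copied coding words and 0.34 with the share of coding bases in another gene. At 72 h these values were 0.44, 0.33, -0.31 and 0.01, so the relations did not hold at every time. With the mean level rho was -0.12, -0.31 and -0.22 at 6, 12 and 36 h. The control libraries enter both the log2FC and the mean level. These are descriptions across genes of the same libraries. The 29 members with the C and T run had a median log2FC of 0.65 at 24 h and the 29 without it 0.64, and at 36 h 0.55 and 0.63.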

How the data were processed

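The authors trimmed paired-end reads of polyA-selected mRNA with Trim Galore 0.6.6, aligned them with STAR 2.7.8a to GRCm39, used SAMtools 1.10 and obtained gene counts against GENCODE M26 with HTSeq 0.13.5, ignoring strand. They deposited raw counts, read here as counts. Symbols came from GENCODE M39 (18552 genes matched, 95 not), and starts from RefSeq on GRCm38.p6. With R 4.3.3 and edgeR 4.0.16, counts were scaled by TMM, filtered with filterByExpr over the 8 groups and fitted as group means plus 1 RUVr factor, as the study corrected for unwanted variation. This factor was 0.80 in Ctr 72 h replicate 2, -0.39 in replicate 1 and -0.35 in replicate 3. In all other libraries it lay between -0.10 and 0.13, so it mainly separated the Ctr 72 h libraries from each other. Genes were tested with the quasi-likelihood test and Benjamini-Hochberg adjustment, and the fit was tested on simulated data. DESeq2 1.42.0 and limma 3.58.1 were alternatives. Each library is taken as 1 animal, which the library numbers do not state. Members and gene lists were chosen with earlier results of these data known. Members named were the 5 largest changes in each direction per comparison (mean log2 CPM of at least 1), DEGs, PCR references, paralogs and a preset list. Of each other list up to 4 genes per comparison could be named. Alternatives without the Ctr 72 h libraries, without the libraries with ganglion genes, thinned to the smallest total and without members inside other genes were added after seeing the data. Totals of 2663936 to 30133731 counts set the precision. Some single genes are not reported here.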

Additional observations from a re-analysis of the deposited data

Results flagged for a closer look

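Differences of the SE effect between times, tested as interactions in the fit over all genes, put these members forward. Between 72 and 36 h the log2FC differed by -1.11 for Rps27l, -1.06 for Rps13, -0.94 for Rps26, -0.83 for Rpl38, -0.81 for Rpl9, -0.78 for Rps25, -0.62 for Rps18 and -0.61 for Rps24. Between 72 and 12 h it differed by -1.20 for Rpl27, -0.92 for Rps13, -0.82 for Rps26, -0.81 for Rps27l, -0.72 for Rpl27a and -0.59 for Rps27, all smaller at 72 h, and by 0.49 for Rps4x and 8.07 for Rpl3l, larger at 72 h. These 6 smaller and 2 larger effects of 79 stand beside 8.16% smaller and 14% larger over all genes, so neither share exceeds that of all genes. For 72 against 36 h, 1.43% of all genes were smaller and 3.92% larger. The value of Rpl3l is set by Ctr 72 h libraries at 0 and is no measure of size. All of these comparisons use the Ctr 72 h libraries. Over the members the median log2FC was -0.00 from SE 36 h to SE 72 h, with 0 called. From Ctr 36 h to Ctr 72 h it was 0.49, with 21 called higher. Calls of the differences were also lost when single libraries of other groups were left out. Rps26 measured 77.3, 90.7 and 124 CPM in Ctr 72 h, 54.6, 56.8 and 59.1 in Ctr 36 h and 85.9, 81.5 and 98.3 in SE 72 h. Rps13 measured 50.9, 41.1 and 72 CPM in Ctr 72 h, 26.8, 32.5 and 35.7 in Ctr 36 h and 48, 39.1 and 50.5 in SE 72 h. In Rps4x the SE libraries themselves differed, with 234, 156 and 201 CPM at 12 h and 307, 318 and 390 at 72 h. Its controls measured 175, 178 and 163 CPM in Ctr 12 h and 206, 216 and 211 in Ctr 72 h. With every library thinned to the smallest total, 9 members were called between 72 and 36 h (median difference -0.52) and 5 between 72 and 12 h (median difference -0.31).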

How the results depend on the processing

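Counts of called members are given here where an alternative moved them by more than 1.5 times. The cause was not tested unless stated. When the number range entered the fit as a factor the counts at 6, 12, 24 and 72 h were 1, 11, 22 and 7, with 2 for the effect at 72 minus 36 h and 1 for 72 minus 12 h, 0 for SE 12 h against 6 h, 3 for SE 24 h against 12 h, and 1 and 0 for Ctr 72 h against Ctr 36 h and Ctr 12 h. In that fit Rps29 (-0.12) and Rpl31 (-0.11) changed sign at 24 h. Without the Ctr 72 h libraries it was 31 at 6 h, 54 at 72 h and 3 for 36 minus 12 h, and at 72 h Rpl3l stood at -0.72, while members called in that fit, among them Rplp1 (0.28), Rps25 (0.46), Rps27a (0.45), Rps24 (0.47), Rps26 (0.61), Rpl28 (0.47), Rps19 (0.48), Rpl27a (0.35), Rpl38 (0.36), Rpl36 (0.52), Rpl35a (0.38), Rps7 (0.41) and Rps27 (0.30), turned from below to above 0. Against the mean of the 3 control groups it was 39 at 72 h, and of the members called there Rps24 (0.28), Rps26 (0.37) and Rps19 (0.30) turned likewise. Without the 6 libraries with ganglion genes it was 47 at 12 h, 2 for 36 minus 12 h, 5 for SE 12 h against 6 h, 9 for SE 36 h against 24 h, and 0 for Ctr 72 h against Ctr 36 h and against Ctr 12 h. No count is given for comparisons with SE 72 h in that fit, where only its replicate 3 remains. As DEGs there were 0, 9, 32, 19 and 4 from 6 to 72 h, and at an adjusted p of at most 0.01 there were 3 at 6 h, 12 at 12 h and 7 at 72 h, fewer by construction. Thinned to the smallest library it was 9 at 72 h, 1 for 36 minus 12 h, 5 for 72 minus 12 h and 0 for Ctr 72 h against Ctr 12 h.

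For the differences of effect at 36 minus 12 h, 72 minus 36 h and 72 minus 12 h, DESeq2 gave 2, 16 and 13, limma-voom 1, 5 and 3, and library totals alone 3 and 18 for the first pair. At least 10 counts in every library gave 2 for 36 minus 12 h, and no RUVr factor gave 4 and 5 for the last pair. SE 24 h against 12 h had 8 calls with no RUVr factor, 9 with DESeq2 size factors and 0 in the compared groups only, where SE 12 h against 6 h also had 0. Ctr 72 h against Ctr 36 h had 8 with no RUVr factor, 1 with limma-voom and 61 in the compared groups only, and Ctr 72 h against Ctr 12 h had 0 in each of these 3, 12 with library totals and 19 with DESeq2. The share of counts without Rpl4, Rplp1 and Rps3, lower by construction, was 0.715, 1.01, 0.923 and 0.925% at SE 6, 24, 36 and 72 h and 0.631, 0.581 and 0.823% at Ctr 12, 36 and 72 h.

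SE and control libraries of the same replicate number deviated little together (correlations of -0.201 to 0.181), which cannot show whether the animals were paired. The study fitted them as unpaired. With the replicate block the counts were 2, 16 and 13 for the 3 differences of effect, 22 for SE 24 h against 12 h, and 32 and 18 for Ctr 72 h against Ctr 36 h and Ctr 12 h.

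When 1 library was left out, the count at 6 h ranged from 1 to 13, that at 12 h from 11 to 39, that at 24 h from 56 to 71, that at 36 h from 34 to 58 and that at 72 h from 9 to 14. It ranged from 0 to 1 for 36 minus 12 h, 1 to 14 for 72 minus 36 h and 1 to 19 for 72 minus 12 h, from 0 to 1 for SE 12 h against 6 h, 1 to 21 for SE 24 h against 12 h, 0 to 0 for SE 36 h against 24 h and 0 to 1 for SE 72 h against 36 h. Between controls it ranged from 0 to 0, 0 to 30 and 0 to 18 for 36 against 12 h, 72 against 36 h and 72 against 12 h. The median log2FC of the members at 12, 24 and 36 h stayed between 0.19 and 0.75 under the alternatives other than leaving out single libraries. The shallow Ctr 72 h libraries limit what 72 h can show.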
